A study of Mus musculus with 17 samples.

Results

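Circulating CD8+ T cells of APP-PS1 mice were compared with those of wild type (WT) mice by RNA sequencing, across all genes of the count table. The 8 libraries labelled as blood were used of 17 in the series: 3 from APP-PS1 blood and 5 from WT blood. All 9 brain libraries entered the expression filter, the scaling and the shared estimate of the spread, and 1 comparison of tissues. APP-PS1 is the strain name given for APP Swedish PS1 dE9 mice, which carry the mutant human transgene PS1-dE9 beside a chimeric mouse/human amyloid precursor protein with the Swedish mutation (Mo/HuAPP695swe). Both transgenes are driven by the prion protein promoter and directed to neurons of the central nervous system, so the strain models amyloid deposition in brain and not a change made in T cells. WT mice are labelled as controls. APP-PS1 blood replicates 1 and 2 came from males and replicate 3 from a female, whereas all 5 WT blood libraries came from females, so strain and sex largely coincided. Mice were bred without specific pathogens and moved to ordinary housing shortly before use, per the labels, which give no ages for single mice. Red cells were lysed in the blood samples. The sources used here do not give the step that isolated the CD8+ cells. No label ties a library to an animal, so the p-values cover the variation among these libraries, part of which may be technical.

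CD8+ T cells are the cytotoxic lineage, which recognises peptides on MHC class I molecules. In blood, naive cells carry the lymph node homing receptor CCR7 and the transcription factors KLF2, LEF1 and TCF-1. Antigen-experienced cells instead hold transcripts of granzymes, the chemokine CCL5 and receptors for inflamed tissue such as CCR2. CD8+ T cells enter the aged and the amyloid-bearing brain, and blood is the compartment they come from.

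The APP-PS1 blood libraries held 39055, 46336 and 41102 counts and the WT blood libraries 62604 to 214670, so every APP-PS1 library was shallower than every WT library (exact two-sided permutation test, n = 3 and 5, p = 0.0357, the smallest this design can give; adjusted p = 0.125 over 7 library measures). Genes with at least 1 count numbered 5321 to 5475 against 6096 to 9102. After thinning all libraries to 39055 counts the numbers overlapped, at 5059 to 5475 against 5243 to 5819. Mitochondrial (2.17% to 3.34% against 1.53% to 3.23% of counts), ribosomal protein and haemoglobin shares overlapped between the groups. A count of 0 over a group still allowed 23.7 CPM (counts scaled to the library total) in APP-PS1 blood and 5.04 CPM in WT blood, at a floor of 3 counts, counting error only. Of 11817 genes with a count in blood, 2366 passed the expression filter and were tested, 1610 of them by being above about 117 CPM in at least 3 blood libraries and 756 through brain libraries or fewer blood libraries.

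The label CD8+ held in both groups. All 7 CD8 T cell markers had counts in every library, among them Cd8a (259 to 414 CPM in APP-PS1 against 411 to 623 in WT) and Cd8b1 (794 to 1046 against 884 to 1198), while Cd4 and Foxp3 had no count in any blood library. The other CD4 T cell markers, Zbtb7b and Cd40lg, had no count in APP-PS1 and 10 and 2 counts in WT blood. The CD4 sum was thus 0 in all APP-PS1 libraries and 4.66 to 39.3 CPM in WT, without overlap. Its WT mean of 23.4 CPM was under the 23.7 CPM that 0 counts still allowed in APP-PS1, so no difference was shown. The summed CD8 markers were nevertheless lower in APP-PS1, at 6539 to 7056 against 7188 to 9340 CPM with no overlap. The APP-PS1 group held 126493 counts in total against 595238 in WT, so numbers of markers with counts cannot be compared directly between the groups. Of 8 NK cell markers 5 had counts in APP-PS1 and 7 in WT, and their sum was 51.2 to 73.0 against 88.5 to 490 CPM, also without overlap. The CD8, CD4 and NK sums did not pass (exact two-sided permutation test, adjusted p = 0.155 for each over 13 marker sums). The defining NK gene Ncr1 was at 0 throughout, and most NK counts came from 1 receptor gene, Klre1, with 4 against 92 counts. Of 15 B cell markers 7 had counts in APP-PS1 and 12 in WT (summed 219 to 367 against 138 to 543 CPM), with Ms4a1 and Ighd at 0 in all 8 libraries. Of 10 monocyte or macrophage markers 2 had counts in APP-PS1 and 5 in WT (97.3 to 307 against 98.2 to 192 CPM, mostly Ctss at 21 against 47 counts). Lyz2, Cd68 and Lst1 had 0 counts in APP-PS1 and 11, 10 and 4 in WT blood, at pooled WT levels under the APP-PS1 floor of 23.7 CPM. Ms4a6c had 5 counts in each group, and Csf1r and Cd14 were at 0 in both. Of 9 neutrophil markers none had a count in APP-PS1 and 2 had in WT. The part of these markers in the gene results was not tested. In bulk libraries such as these, fewer cells holding a transcript and less of that transcript in each cell cannot be told apart. Among sex-linked genes, Xist had 4 counts in APP-PS1 blood, all in the female library, and 119 in WT blood.

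One gene passed the test between the strains. Ccr7, the receptor that guides naive and central memory T cells into lymph nodes, rose in APP-PS1 blood. It stood at 640, 432 and 438 CPM in the 3 APP-PS1 libraries. In the WT libraries it stood at 97.8, 86.99, 33.45, 128 and 49.1 CPM. The lowest APP-PS1 library was thus well above the highest WT library, and the female APP-PS1 library lay with the males. The means were 503 ± 119 (SD, n = 3) and 79.0 ± 37.97 CPM (SD, n = 5), resting on 63 and 48 counts, a log2 fold change of 2.54 (SE 0.51; edgeR's quasi-likelihood test, adjusted p = 0.0169 by Benjamini-Hochberg). Ccr7 (ENSMUSG00000037944) is a protein-coding gene on the minus strand of chromosome 11, from 99144196 to 99155077 in GRCm38.

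This was the only call among 2366 genes (0.0423%). At an unadjusted p under 0.05, 69 genes were higher (2.92%) and 121 lower (5.11%) in APP-PS1 blood, and the median log2 fold change of all tested genes was -0.05. The groups did not overlap in CPM for 77 genes with APP-PS1 higher (3.25%) and 87 with APP-PS1 lower (3.68%). The call of Ccr7 rested on few libraries and on the filter. Its log2 fold change stayed between 2.26 and 2.74 in all settings tried, but the call ended without any 1 of APP-PS1 blood replicates 1, 2 or 3 (adjusted p = 0.268, 0.119 and 0.138) or WT blood replicates 1, 2, 3 or 5 (adjusted p = 0.0601, 0.0540, 0.101 and 0.0711). It also ended with sex as a term (adjusted p = 0.539), with female libraries only (0.637), after thinning to equal depth (0.150) and with looser filters (0.0641 and 0.100).

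**Figure D1:**
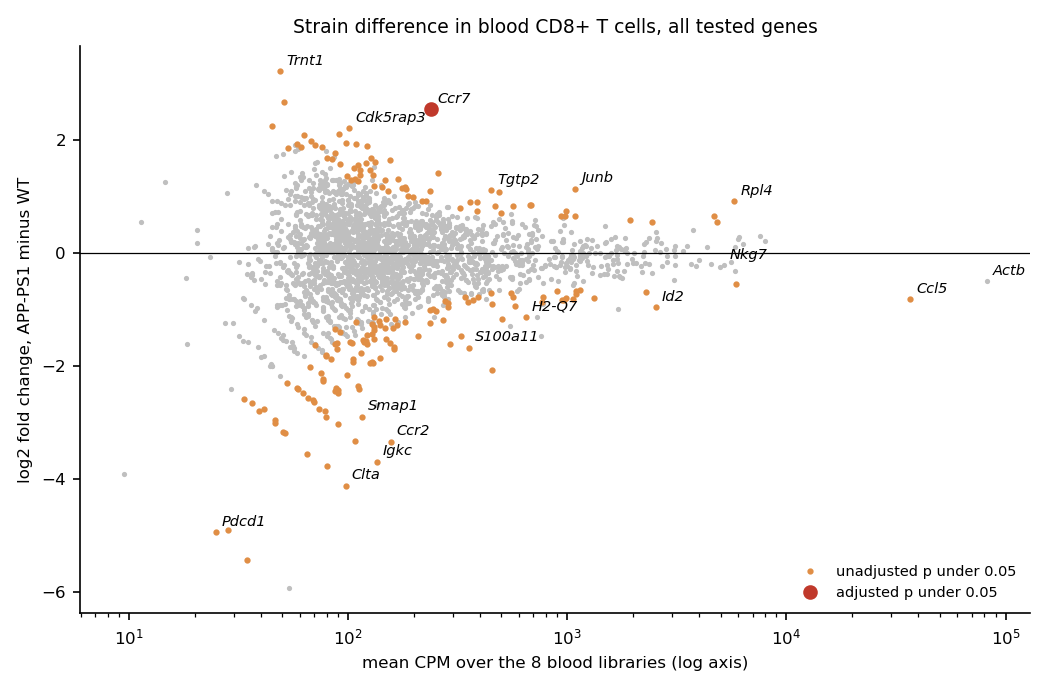
Each point is 1 of 2366 tested genes, with the mean CPM over the 8 blood libraries on a log axis and the log2 fold change of APP-PS1 over WT blood on the vertical axis. Ccr7 (red) is the only gene with an adjusted p under 0.05, orange points have an unadjusted p under 0.05, and the spread of the points widens toward low CPM.

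Of 23 genes on the list of naive and quiescent T cells, 14 were tested. Of these, 11 had positive and 3 negative values, with a median log2 fold change of 0.46, where 47.3% of all tested genes were positive with a median of -0.05. The summed CPM of the list was 6861 to 7143 in APP-PS1 and 2593 to 5909 in WT blood, with no overlap. Besides Ccr7, the groups did not overlap for Lef1 and Klf2, and no other member passed the test. These were 3 of the 14 tested members, where 3.25% of all tested genes were higher without overlap.

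Klf2, a transcription factor of quiescence and egress, stood at 1280, 1662 and 1119 CPM in APP-PS1 and at 662, 1052, 558, 1070 and 520.5 CPM in WT blood. All APP-PS1 libraries were above all WT libraries, by a small margin over WT blood replicates 2 and 4. The log2 fold change was 0.73 (SE 0.33; edgeR's quasi-likelihood test, adjusted p = 0.557). Lef1, which acts with TCF-1 in naive T cells, stood at 563, 583 and 414 CPM against 340, 221, 212, 351 and 177 CPM. Its log2 fold change was 0.90 (SE 0.41), and it did not pass either (edgeR, adjusted p = 0.552). The related Klf3 had a log2 fold change of 0.68 (SE 0.36) with overlapping groups. Other genes of naive cells had values near 0 with wide intervals. Tcf7, which encodes TCF-1, had a log2 fold change of 0.01 (95% interval -0.79 to 0.80), and Il7r, the receptor for a survival cytokine of resting T cells, one of 0.09 (-1.03 to 1.22). S1pr1, the receptor for exit from lymphoid tissue and a known target of KLF2, had a value of the opposite sign, -1.58 (SE 0.97), from 6 and 71 counts. WT blood replicate 5 was lowest of the WT libraries for Klf2, Lef1, Klf3, Tcf7, Il7r and S1pr1.

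Genes of effector and cytotoxic cells leaned the other way. Of 31 listed, 19 were tested, 3 with positive and 16 with negative values, and the median log2 fold change was -0.82. No member passed the test. The summed CPM was 33000 to 36730 in APP-PS1 and 46550 to 69590 in WT blood without overlap, and Ccl5 made up most of it. Ccl5, a chemokine stored and secreted by effector and memory CD8+ cells, stood at 24120, 27970 and 26030 CPM in APP-PS1 blood. In WT blood it stood at 56860, 43250, 40300, 35210 and 39940 CPM. It was the second most abundant of the genes named here after Actb, every APP-PS1 library was below every WT library, and the log2 fold change was -0.82 (SE 0.22; edgeR's quasi-likelihood test, adjusted p = 0.176). Ccl5 was called in 4 of 20 alternative settings. These were voom (adjusted p = 0.0150), no filter (0.0359), the filter of 5 CPM (0.0255) and the fit without mitochondrial, ribosomal protein and haemoglobin genes (0.0353). With no filter and with the filter of 5 CPM, the median log2 fold change over all genes was itself -0.40 and -0.47. Id2, a transcription factor that favours effector over memory fate, stood at 819, 1791 and 2336 CPM against 3107, 2357, 3222, 2508 and 4115 CPM, with APP-PS1 blood replicate 3 just under the lowest WT library. Its log2 fold change was -0.97 (SE 0.28; edgeR, adjusted p = 0.186). The third member without overlap was Fgl2, at 51.2 to 108 against 121 to 221 CPM. These were 3 of the 19 tested members, where 3.68% of all tested genes were lower without overlap. NK cells share several genes of this list, and the NK marker sum, given above, was also lower in all APP-PS1 libraries; its part here was not tested.

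Granule genes overlapped between the strains. Nkg7, a cytotoxic granule membrane protein, stood at 4911 ± 180.2 CPM (SD, n = 3) against 5336 ± 441 CPM (SD, n = 5), and the 95% interval of its log2 fold change ran from -0.67 to 0.23. Gzmb (86.3 to 205 against 79.9 to 884 CPM), Gzma (108 to 511 against 112 to 2131 CPM) and Gzmk (128 to 216 against 208 to 535 CPM), which encode granzymes, overlapped between the groups. The highest values of Gzmb and Gzma were both from WT blood replicate 5. Klrg1, a receptor of terminal effector cells, was also highest there, at 295 CPM against 60.6 to 128 in the other WT libraries and 64.7 to 128 in APP-PS1.

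**Figure D2:**
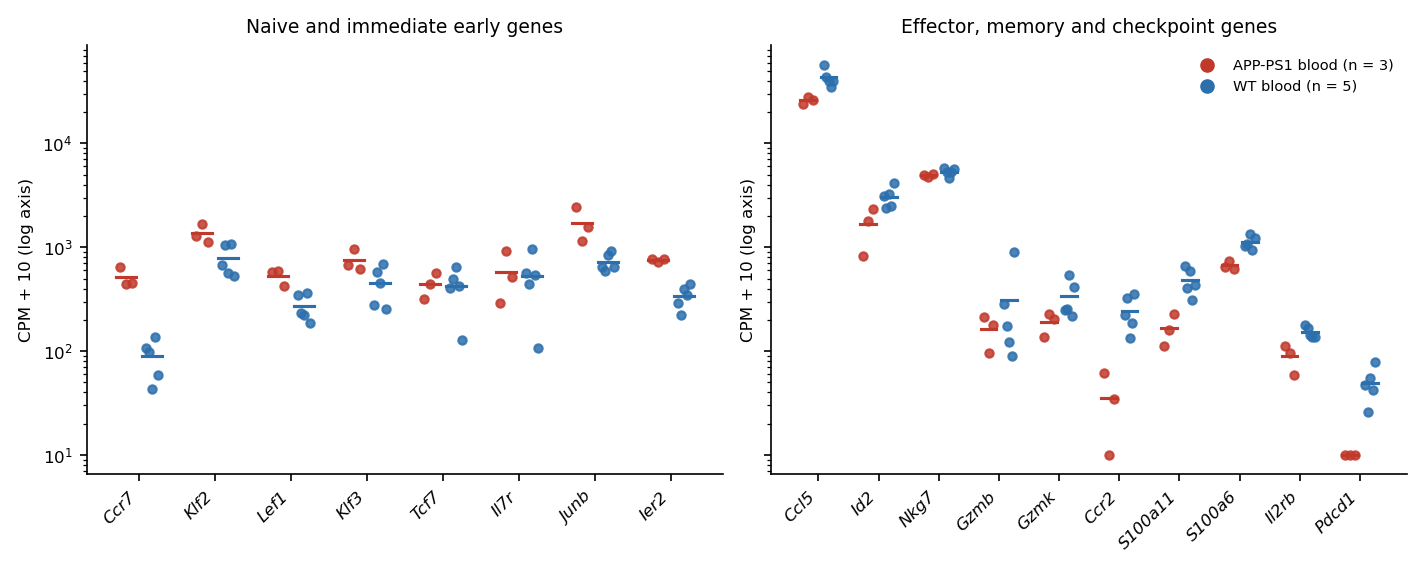
CPM + 10 of single genes on a log axis, 1 point per library, with red for APP-PS1 blood (n = 3), blue for WT blood (n = 5) and bars for group means. Ccr7 shows the widest gap between the groups on the left, and on the right Ccl5, Ccr2, S100a11, S100a6 and Pdcd1 are lower in every APP-PS1 library, while Nkg7, Gzmb, Tcf7 and Il7r overlap.

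Memory and activation genes had the largest share of negative values of the 22 lists. Of 31 listed genes 27 were tested, 25 negative and 2 positive, with a median log2 fold change of -0.66. At an unadjusted p under 0.05, 8 were lower (against 5.11% of all tested genes) and none higher, but none passed the adjusted test. The groups did not overlap for 6 of them (against 3.68% of all tested genes), which were S100a11, Ccr2, Slamf7, S100a6, Anxa2 and Il2rb. The summed CPM was 8834 to 9635 in APP-PS1 and 10380 to 13140 in WT blood.

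Ccr2, which takes T cells and monocytes to inflamed tissue, had counts in 2 of 3 APP-PS1 libraries, at 51.2, 0 and 24.3 CPM. In WT blood it stood at 214, 316, 123, 176 and 344 CPM. Every WT library exceeded every APP-PS1 library. With 3 against 143 counts the pooled CPM was 10.1-fold higher in WT, with an exact 95% counting interval from 3.40 to 49.7. The fitted log2 fold change was -3.34 (SE 0.85; edgeR's quasi-likelihood test, adjusted p = 0.125). Monocytes also express Ccr2. Of their markers, Lyz2, Cd68 and Lst1 had counts in WT blood alone. Their pooled WT levels (18.5, 16.8 and 6.72 CPM) were under the 23.7 CPM that 0 counts still allowed in APP-PS1 blood. Ctss (166 against 79.0 pooled CPM) and Ms4a6c (39.5 against 8.4, from 1 APP-PS1 library) were higher in APP-PS1, and the monocyte sum overlapped. The part of monocytes in the Ccr2 values was not tested. Ccr2 passed in 3 of 19 alternative settings: blood libraries only (edgeR, adjusted p = 0.0396) and both looser filters (0.0140 and 0.00869). Those filters also moved the median log2 fold change over all genes down to -0.40 and -0.47. S100a11, a calcium-binding protein abundant in antigen-experienced T cells, stood at 102, 151 and 219 CPM against 657, 395, 580, 303.5 and 422 CPM, again without overlap. Its log2 fold change was -1.68 (SE 0.42, edgeR, adjusted p = 0.125). It passed in 2 of 20 alternative settings, the same 2 looser filters (0.0412 and 0.0255). Its relative S100a6 stood at 608 to 734 against 926.5 to 1327 CPM, a log2 fold change of -0.84 (SE 0.29), and Anxa2, a binding partner of S100 proteins, at 51.2 to 146 against 192 to 412.5 CPM. Slamf7, an activation receptor, had 1 count in APP-PS1 and 63 in WT blood. Il2rb, a receptor chain for interleukins 2 and 15, stood at 48.7 to 102 against 128 to 168 CPM. In contrast, Crip1, another gene of this list and among its most abundant, had a log2 fold change of -0.01 (SE 0.26). Cd44, a classic activation marker, had a value of -0.88 (SE 0.71) with overlapping groups.

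**Figure D3:**
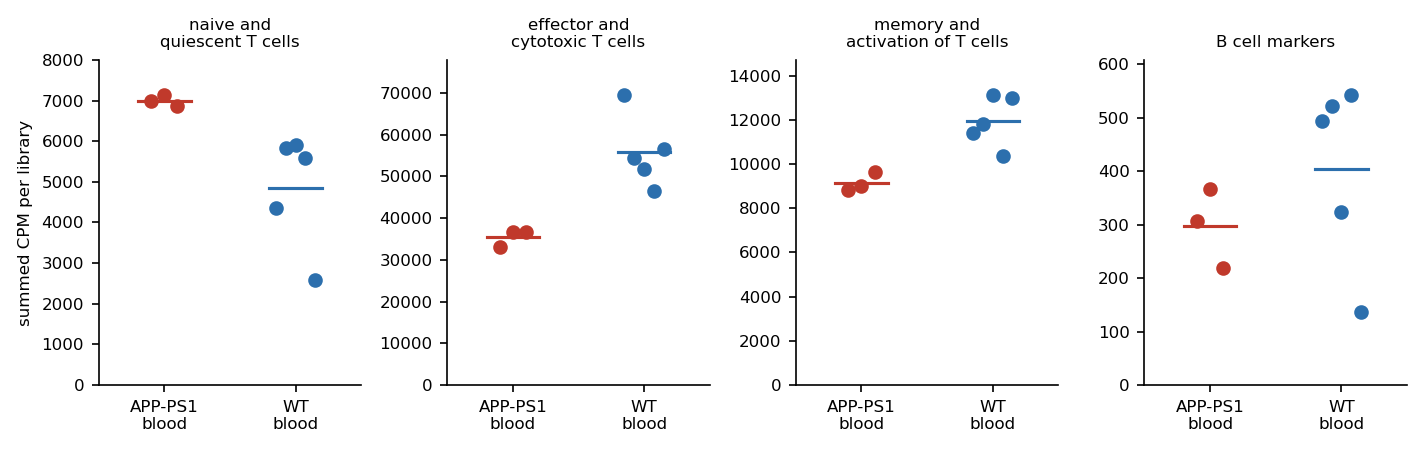
Summed CPM per library for 3 gene lists and for B cell markers, with red points for APP-PS1 blood (n = 3), blue points for WT blood (n = 5) and bars for group means. The naive sum is higher and the effector and memory sums are lower in all APP-PS1 libraries, without overlap, and the B cell markers overlap.

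Inhibitory receptors were mostly under the filter: 5 of 17 listed genes were tested, 4 with negative values, and the median log2 fold change was -0.58, also with Pdcd1 set at its bound. Pdcd1, which encodes the checkpoint receptor PD-1, had no count in the 3 APP-PS1 libraries and 15.8 to 68.75 CPM in the WT libraries. It was at least 1.63-fold lower in APP-PS1 blood, with 0 against 23 counts and the floor taken as 3 counts for the whole group. It did not pass (edgeR's quasi-likelihood test, adjusted p = 0.483). The exhaustion regulator Tox overlapped at 64.7 to 122 against 32.0 to 97.8 CPM. Ctla4 and Lag3 were below the filter, with 1 and 8 counts in APP-PS1 and overlapping groups.

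Genes of the T cell receptor complex and its first signalling steps had 8 positive and 13 negative values of 21 tested, with a median of -0.06. No groups were apart, and 3 members had an unadjusted p under 0.05, all lower in APP-PS1: Cd3e (log2 fold change -0.78), Cd3g (-0.68) and Cd8a (-0.72). Of all tested genes, 5.11% were lower at that threshold. The antigen-receptor chain genes Trac and Trbc2 had values of -0.39 (SE 0.29) and -0.20 (SE 0.26). Among 21 tested genes of MHC class I presentation 17 were negative, with a median of -0.32, including B2m at -0.32 (SE 0.22), H2-K1 at -0.22 (SE 0.23) and H2-D1 at -0.19 (SE 0.23). H2-Q7, a non-classical class I gene, was the one without overlap, at 333, 367 and 462 CPM against 699, 996, 992, 511 and 795.5 CPM, and had a log2 fold change of -1.14 (SE 0.33; edgeR, adjusted p = 0.196). Class I genes are near-identical copies, so reads of H2-Q7 may be shared with its neighbours. Type I interferon response genes had 7 positive and 17 negative values of 24 tested, with a median of -0.40. Isg15, the classic member, overlapped at 21.6 to 102 against 15.97 to 103 CPM. The exception without overlap was Gbp2, at 97.3 to 129.5 against 0 to 66.9 CPM. Tgtp2, an interferon-inducible GTPase with a near-identical copy, was higher, at 973, 561 and 560 against 280, 206, 357, 240 and 403 CPM, a log2 fold change of 1.11 (SE 0.32; edgeR, adjusted p = 0.186). Of 9 tested cytokine receptor and JAK-STAT genes 8 were negative, with a median of -0.57, among them Stat3 without overlap (108 to 146 against 157 to 279 CPM). Jak1, the most abundant member, had a value of 0.05 (SE 0.28). H2-Q7, Gbp2 and Stat3 were each the only member of their list without overlap, of 21, 24 and 9 tested. Over all tested genes the shares without overlap were 3.25% higher and 3.68% lower, so single members are no result about these lists.

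Immediate early genes, which are switched on within minutes of stimulation, were mixed. Of 16 tested 9 were positive and 7 negative, with a median of 0.24 that turned negative in 6 of 20 settings. Junb, an AP-1 subunit, stood at 2407, 1144 and 1557 CPM in APP-PS1 and at 634, 577, 836, 910.5 and 629 CPM in WT blood. All APP-PS1 libraries were above all WT libraries, with replicate 1 highest. Its log2 fold change was 1.13 (SE 0.30, edgeR's quasi-likelihood test, adjusted p = 0.168). It passed in 1 of 20 alternative settings, the fit of blood libraries only (0.0419). Ier2, another early response gene, was likewise apart, at 712 to 768 against 214 to 432 CPM. Jund, a further AP-1 subunit, was apart in the other direction, at 438 to 626 against 796 to 1115 CPM. The list thus had 2 members higher and 1 lower without overlap, where the shares of all tested genes were 3.25% and 3.68%. Jun, Fos and Cd69 overlapped between the groups.

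Of the other lists, no member passed the test. Actin cytoskeleton genes had 9 positive and 22 negative values of 31, with a median of -0.15. Ezr, which links actin to the membrane, and Rhoa, a small GTPase of migration, were lower without overlap (25.6 to 64.7 against 128 to 256 CPM, and 179 to 341 against 382 to 482 CPM). These were 2 of the 31, where 3.68% of all tested genes were lower without overlap. Actb varied over a wide range, at 22350, 62630 and 117300 CPM in APP-PS1 and 66690 to 146800 CPM in WT blood. Homing receptors and integrins had 2 positive and 8 negative of 10 with a median of -0.03 that turned positive in 5 of 20 settings, and cell survival genes 2 and 13 of 15 with a median of -0.16. Cytosolic ribosomal proteins had 34 positive and 45 negative values of 79, with a median of -0.03 that changed sign in 8 of 19 settings. Rpl4 stood out among them, at 12670, 6215 and 6715 CPM against 3620, 2839, 4136, 5766 and 4341 CPM, a log2 fold change of 0.91 (SE 0.26; edgeR, adjusted p = 0.186). Mitochondrially encoded genes had 10 positive and 3 negative values, with a median of 0.16 that turned negative in 3 of 19 settings. Nuclear-encoded oxidative phosphorylation genes had 38 and 36 of 74, with a median of 0.06 that turned negative in 7 of 20 settings. In each direction 4 members had no overlap, where the shares of all tested genes were 3.25% higher and 3.68% lower. Medians of glycolysis (-0.12), heat shock (0.01), translation (-0.02), proliferation (0.06), chromatin regulator (0.02) and lipid (0.17) genes lay near 0 and changed sign in 1 to 11 settings.

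**Figure D4:**
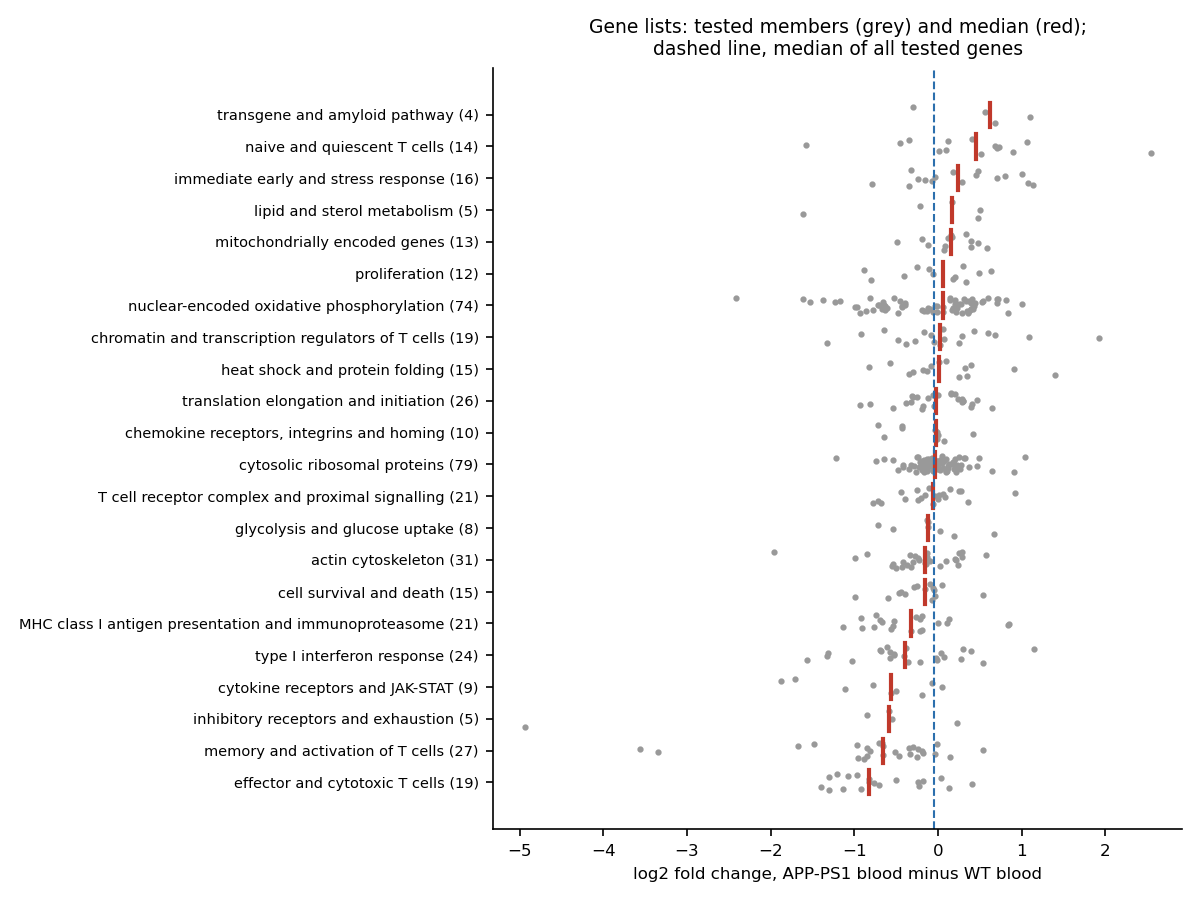
Log2 fold changes of the tested members (grey points) and their median (red bar) for 22 gene lists, with the number tested in brackets; the dashed line is the median of all tested genes. Naive T cell genes lie to the right with a median of 0.46, and memory and effector genes to the left with medians of -0.66 and -0.82. The median furthest to the right, 0.63, is that of the 4 tested genes of the transgene and amyloid list.

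The remaining genes with the smallest p-values had few counts. Clta, a clathrin light chain, had the smallest p after Ccr7. It had 1 count in APP-PS1 blood, in replicate 1, and 88 in WT blood, where it stood at 140, 111, 223, 112 and 167 CPM. The pooled CPM was 18.7-fold higher in WT, with a counting interval from 3.27 to 747. It just missed the threshold (edgeR's quasi-likelihood test, adjusted p = 0.0645). It passed in 3 of 18 alternative settings. These were both looser filters (0.0359 and 0.0255), which lowered the median over all genes, and the fit without mitochondrial, ribosomal protein and haemoglobin genes (0.0423). Smap1, an Arf GTPase-activating protein of vesicle traffic, had 3 against 107 counts, 7.58-fold higher in WT with an interval from 2.53 to 37.3. Higher in APP-PS1 were Trnt1, which adds the CCA end to tRNAs (14 against 6 counts, at 43.2 to 179 against 0 to 19.6 CPM), and Cdk5rap3 (170 to 230 against 0 to 71.2 CPM). Etfb, a mitochondrial electron carrier, stood at 216 to 365 against 39.5 to 118 CPM. Clta, Smap1, Trnt1, Cdk5rap3 and Etfb had no overlap between the groups. Rexo2, a mitochondrial exonuclease, overlapped. All 16 of the genes with the smallest p, Ccr7 among them, kept their sign in every setting that tested them. They were picked by p from these same libraries, and every setting reused these counts or part of them. The kept sign is therefore no separate support.

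The genes of the model itself were scarcely seen in these cells. App had 0 counts in APP-PS1 and 4 in WT blood, and Prnp, whose promoter drives the transgenes, 0 and 1. Of 4 tested genes of amyloid processing, Psenen, a gamma-secretase subunit, had a log2 fold change of 0.57 (SE 0.34) and Adam10, an alpha-secretase, -0.30 (SE 0.48).

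Whether the strain difference in blood differed from that in brain was tested as an interaction in the same fit. One of 2366 genes passed (0.0423%), the immunoglobulin kappa constant gene Igkc, a B cell transcript on chromosome 6 from 70726435 to 70726966. In blood Igkc stood at 0, 21.6 and 24.3 CPM in APP-PS1 and at 284, 261, 167, 240 and 78.6 CPM in WT. All APP-PS1 libraries were lower, with 2 against 132 counts, and WT was 14.0-fold higher in pooled CPM with a counting interval from 3.81 to 117. In brain the order was the other way, at 176 ± 214 CPM (SD, n = 4) in APP-PS1 and 49.4 ± 21.8 CPM (SD, n = 5) in WT. The log2 strain effect was -3.69 (SE 0.93) in blood and 1.86 in brain, a difference of -5.56 (SE 1.09; edgeR's quasi-likelihood test, adjusted p = 0.0104). Neither strain effect passed alone (edgeR, adjusted p = 0.125 and 0.999). The one in blood passed in 3 of 18 alternative settings: blood libraries only (0.0396), no filter (0.0309) and the filter of 5 CPM (0.0208). Both of these filter settings lowered the median over all genes. The call of the difference ended with DESeq2 (adjusted p = 0.0679), with voom (0.998), without APP-PS1 blood replicate 1 (0.0828), in the female libraries alone (0.652) and in all but 1 of 10 thinned draws. Brain libraries were not left out singly, although the SD of Igkc in APP-PS1 brain exceeded its mean. The other B cell markers overlapped: without Igkc their sum was 195 to 345 CPM in APP-PS1 and 58.9 to 304 CPM in WT blood.

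Ccr7 had a strain log2 fold change of 0.02 in brain, where it was low in both strains (24.8 ± 12.9 CPM, SD, n = 4, and 19.2 ± 7.51 CPM, SD, n = 5). Its difference between tissues was 2.53 (SE 0.96) and did not pass (edgeR, adjusted p = 0.862), so the higher Ccr7 was not shown to be particular to blood. Ccl5 (-0.82 in blood, -0.18 in brain), Id2 (-0.97 and -0.19), S100a11 (-1.68 and -0.48), H2-Q7 (-1.14 and -0.39), Junb (1.13 and 0.53) and Rpl4 (0.91 and 0.55) had the same sign in both tissues, with smaller values in brain. Trnt1 had opposite signs (3.21 and -0.70). The interaction passed for none of these, and 44.4% of all tested genes differed in sign between the tissues. In brain no gene was called between the strains with edgeR, with 98 at an unadjusted p under 0.05. Across the 2366 genes, which are not independent replicates, the strain log2 fold changes in blood and brain had a Pearson's r of 0.101 and a Spearman's rho of 0.115, given as a description of comparisons from a shared fit with no shared library.

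**Figure D5:**
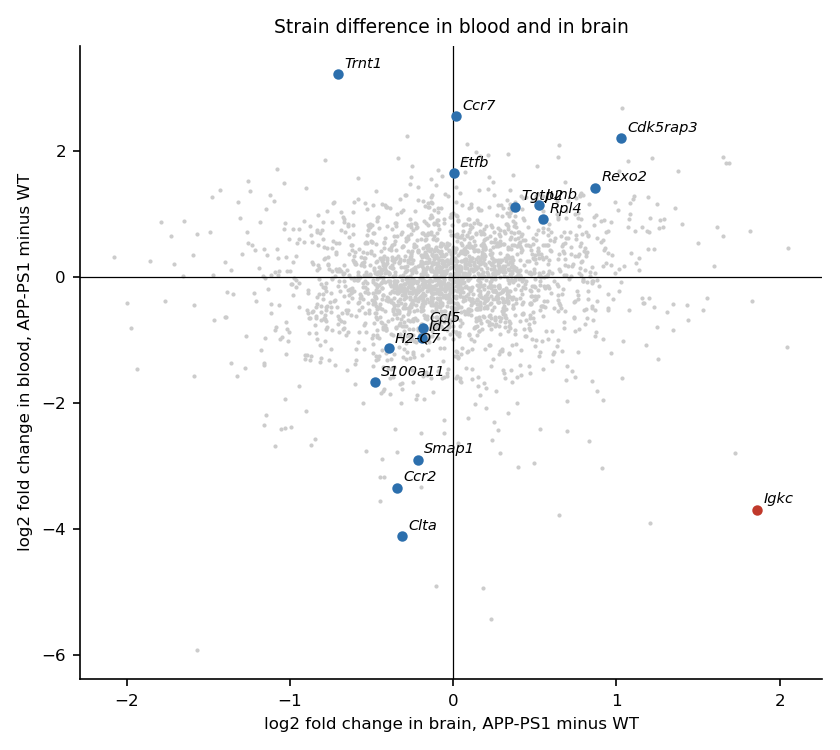
Log2 fold change of APP-PS1 over WT in brain (horizontal) and in blood (vertical) for 2366 tested genes in grey. Labelled points are the 16 genes with the smallest p in blood; Igkc (red), at 1.86 in brain and -3.69 in blood, lies apart in the lower right, and Ccr7 lies at 0.02 and 2.54.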

How the data were processed

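The values the authors deposited are raw read counts of each gene. HTSeq 0.11.2, Bowtie2 2.2.2, DESeq2, FastQC and the build GRCm38 appear in the submitters' processing notes, with no role or order; the sources used here give neither a strand setting nor molecular identifiers. Of 48709 genes, 48349 matched GENCODE M21 (GRCm38) by identifier. Same-group libraries differed by more than sampling noise (chi-square per degree of freedom 3.12 to 7.12 over 13 pairs).

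The test was run in edgeR 4.0.16 under R 4.3.3 (TMM, filterByExpr, robust quasi-likelihood, 17 libraries, 1 mean per group), adjusted by Benjamini-Hochberg over 2366 genes, called at an adjusted p under 0.05. Single values used exact two-sided permutation tests (SciPy 1.17.1). Alternatives included limma 3.58.1 and DESeq2 1.42.0. The fit was tested on simulated data.

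Named genes were the called genes, the 8 per direction with the smallest p, the 3 most abundant members of each list and a fixed set; further list members without overlap, or with an unadjusted p under 0.05, and single marker genes were named after their values were seen. The comparison, the 22 gene lists and the naming rule were chosen with earlier results of these data known. DESeq2 without independent filtering and the B cell sum without Igkc were added after the data were seen. Of the genes the rule gives, 2 are not reported here.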

Additional observations from a re-analysis of the deposited data

Results flagged for a closer look

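Igkc had strain effects of opposite sign in blood and brain, with a tested difference of -5.56 on the log2 scale. Of 128 values examined for a WT blood library far from the other 4, 10 stood apart; chance gives about 1 in 20 groups. WT blood replicate 5 was highest for Actb (146800 CPM), Gzma (2131 CPM), Gzmb (884 CPM), Klrg1 (295 CPM) and Trac (2495 CPM). WT blood replicate 2 was highest for Ctla4 (63.3 CPM), Dnaja1 (490 CPM) and Prnp (7.91 CPM, from 1 count). WT blood replicate 1 was lowest for Adam10 (139.7 CPM), and replicate 3 was highest for the neutrophil markers (22.3 CPM).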

How the results depend on the processing

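The 1 gene called between the blood groups became 0 with DESeq2, which gave Ccr7 no adjusted p after independent filtering (1 gene, Ccr7, without that filtering), 0 with sex as a term, 0 with female libraries only and 0 after thinning. It became 3 with voom, 3 without mitochondrial, ribosomal protein and haemoglobin genes, 4 with blood libraries only, 5 with no filter and 7 with the filter of 5 CPM; with those 2 filters all calls were lower in APP-PS1, Ccr7 was not among them, and the median over all genes moved to -0.40 and -0.47. Leaving out 1 blood library gave 0 to 1 calls. The call was Ccr7 only without WT blood replicate 4, and without APP-PS1 blood replicate 2 it was another gene, lower in APP-PS1. At an unadjusted p under 0.05, DESeq2 had 198 genes, the sex term 127, female libraries 285 and thinning 55. The 1 gene called for the difference between tissues became 0 with DESeq2 (also without independent filtering), voom, female libraries only and thinning. It became 0 to 1 when leaving out 1 blood library. Brain libraries were not left out singly, so the dependence of this call on any 1 of them was not tested. List medians kept their sign in 20 settings for naive (0.18 to 0.70), effector (-1.10 to -0.40) and memory genes (-0.93 to -0.39). The lowest effector and memory medians came with the 2 looser filters, where the median over all genes was itself -0.40 and -0.47. With female libraries only, the naive, effector and memory medians were 0.345, -0.546 and -0.507, and that over all genes was -0.339. A kept negative sign in those settings thus partly follows the shift of all genes. Of 98 named genes tested, 49 kept their sign in all settings. With 1 female APP-PS1 blood library, that library is assumed to vary like the other groups. Depth, sex and strain cannot be fully told apart: all APP-PS1 blood libraries were shallower. No paired analysis was possible because no label pairs the libraries.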
